A study of Mus musculus with 6 samples.

Results

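The genes described here are 31 genes of mature neurons and their synapses, taken by name from the 32564 genes to which the transcripts of the study could be summed. They fall into 23 general synaptic and neuronal genes and 8 genes typical of the projection neurons of the striatum, the brain region that borders the lateral ventricle. They were measured by RNA sequencing in 6 libraries of cells sorted by flow cytometry from the subependymal zone, the stem cell niche along the ventricle. All the mice were gfap:GFP transgenics of the strain given as C56BL/6J and were 3 months old, and their cells were labelled quiescent neural stem cells (qNSCs). In these mice the Gfap promoter, active in astrocytes and in the stem cells that resemble them, drives green fluorescent protein. The mice had received, 3 days earlier, an intraventricular injection of artificial cerebrospinal fluid (aCSF, the vehicle, 3 libraries) or of an antagomir against miR-204 (3 libraries). An antagomir is a chemically modified oligonucleotide that binds a microRNA and blocks it. The titles and the treatment group label give these groups, while the treatment text names the antagomir for all 6 samples. No control oligonucleotide is named, so the presence of any injected oligonucleotide and the block of miR-204 cannot be told apart. The labels do not say whether a library came from 1 animal or several, so each p-value reflects only how far these libraries spread, which may be technical.

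Neurons pass signals at synapses. In the presynaptic terminal, vesicles filled with transmitter fuse with the membrane through the SNARE complex when a synaptotagmin senses calcium, and on the other side glutamate receptors held in a scaffold of postsynaptic proteins receive the signal. The projection neurons of the striatum use GABA and form a pair of classes, one with the dopamine receptor gene Drd1 and the peptide precursor gene Tac1, the other with Drd2, Adora2a and Penk. Both classes carry Ppp1r1b, which encodes the dopamine-regulated phosphatase inhibitor DARPP-32. Such genes are best known from neurons, though not all are confined to them, and neuroblasts switch some of them on as they mature. Which cells the RNA of each member came from was not tested.

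The microRNA that the antagomir targets is shown first, with its seed (bases 2 to 8) in capitals, followed by the places where members carry the complement of that seed in a 3′ UTR (that of the coding transcript with the highest mean TPM among those with an annotated 3′ UTR). Sequences are 5′ to 3′, the microRNA is from RefSeq (GRCm38.p6, chromosome 19) and the sites are from GENCODE M21 (GRCm38), in DNA letters with the match in capitals.
mmu-miR-204-5p: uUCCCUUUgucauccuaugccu
Syp, chrX:7652380-7652409, plus strand: cacatactggatgtggagcctaAAAGGGAA
Syp, chrX:7652419-7652448, plus strand: tacaccattctggaatggggctaAAAGGGA
Kcnc1, chr7:46431764-46431793, plus strand: gagtccatactggccatgtgggcAAAGGGA
Nefm, chr14:68119283-68119312, minus strand: aaataaaagcatcgtgggtaaatAAAGGGA
Slc17a6, chr7:51669999-51670028, plus strand: tatttttatgaatgagagcttgtAAAGGGA
Slc17a7, chr7:45175994-45176023, plus strand: gagagaagttacagaatcccaggAAAGGGA
The match to bases 2 to 8 is AAAGGGA, and AAAGGGAA adds an A opposite the first base of the microRNA. Of the 31 members 5 (16.1%) held AAAGGGA, against 13.6% of 14326 tested coding genes with an annotated 3′ UTR, whose median 3′ UTR length was 888 bases against 1098 for the members. The longer AAAGGGAA was in 1 member, Syp (3.23%), against 5.82% of those genes. The members counted include Slc17a6, which holds AAAGGGA but was too sparse to be tested. Among tested members alone the share with AAAGGGA would be lower. With the coding transcript that has most counts in its place, a choice added after the data were seen, 3 members changed transcript. Then 7 members (22.6%) held AAAGGGA, Camk2a and Grin2b being added, against 14.4% of the tested genes, and 2 (6.45%) held AAAGGGAA against 6.28%. These are matches of letters, and no binding was measured.

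The libraries held 14866453 to 19694409 estimated counts, the fragments that kallisto assigned to transcripts, and 3 counts, the limit that a count of 0 allows, amounted to 0.152 to 0.202 CPM (counts scaled to library size). Such floors, and counting intervals below, cover counting error only. The labelled cell type was checked against marker lists. The astrocyte markers, which neural stem cells share, summed to 4835 to 6858 TPM (a level per transcript length, scaled to the same total in each library) with 0 of 11 at 0 in any library. Oligodendrocyte markers summed to 6868 to 16270 TPM and ependymal markers to 2589 to 4418 TPM, so transcripts of other cell types were abundant beside those of the labelled type. Endothelial markers summed to only 4.16 to 14.7 TPM. In bulk libraries of this kind, fewer cells of a type and less RNA per cell cannot be told apart.

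The neuronal genes were present in every library. Of the 31 members 29 had counts in all 6 libraries, and 15 had a mean level over 10 TPM. Ppp1r1b was the highest, at 391 to 636 TPM. It was followed by Nrgn, a calmodulin-binding protein of dendrites, at 110.5 to 241 TPM. Next came the kinase genes Camk2a (54.3 to 114.7 TPM) and Camk2b (41.6 to 122.6 TPM) and the SNARE gene Snap25 (41.3 to 109.3 TPM), whose ranges overlapped each other. At the other end Frmpd4 reached at most 2.25 TPM and Slc17a6, the vesicular glutamate transporter of thalamic and other subcortical neurons, at most 1.07 TPM. Other neuron genes outside the 31 were measured too. The neuronal splicing factor gene Rbfox3 was at 17.4 to 51.8 TPM and the dendritic microtubule gene Map2 at 142 to 222 TPM.

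**Figure D1:**
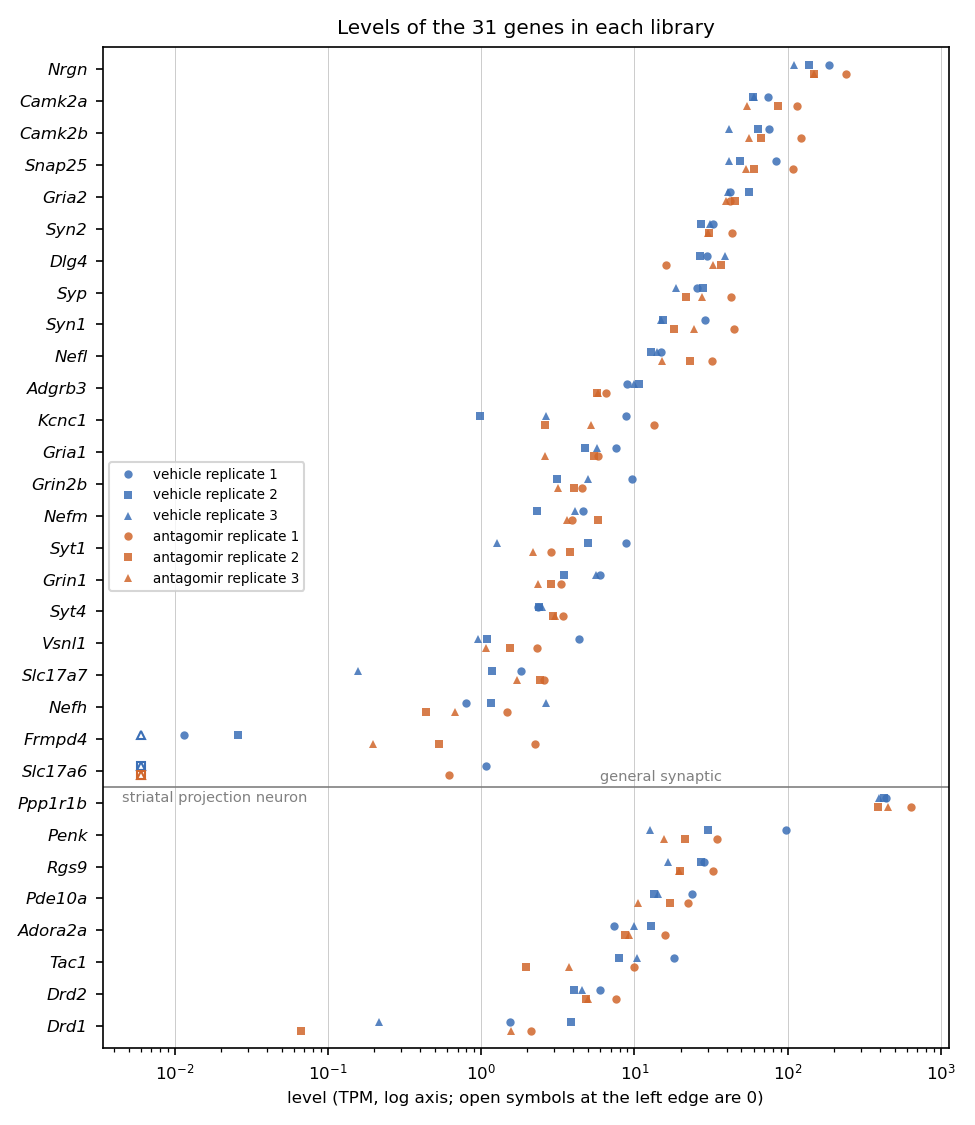
Level of each of the 31 genes in each library, in TPM on a log axis, with vehicle in blue, antagomir in orange and a symbol for each replicate number; open symbols at the left edge are 0. The levels run from 0 for Slc17a6 in 4 libraries to 636 TPM for Ppp1r1b in antagomir replicate 1, and circles, the replicate 1 libraries, lie at the right for most genes.

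The replicate 1 libraries of both groups stood highest for most members. Of the 31 genes 26 had their highest CPM in vehicle replicate 1 (8 genes) or antagomir replicate 1 (18 genes), against 40.2% of the 15012 genes tested. For 13 members these libraries were the top pair, against 13.9% of all genes tested. Other neuronal lists shared this. Of 28 other presynaptic genes 7 were highest in vehicle replicate 1 and 15 in antagomir replicate 1. These counts were 10 and 13 of 38 other postsynaptic genes and 3 and 12 of 21 other striatal genes. For 27 genes of the neuronal soma, axon and channels they were 4 and 15. The median member deviated from its mean log2 CPM by 0.28 in vehicle replicate 1 and 0.49 in antagomir replicate 1, and by -0.26 to -0.087 in the other 4 libraries. Neuroblast markers were also highest in this pair: their summed level was 1362 TPM in vehicle replicate 1 and 2248 TPM in antagomir replicate 1 against 621 to 1032 TPM in the other 4, with 0 of 13 at 0 in any library. Microglia markers summed to 2470 TPM in vehicle replicate 1 and 177 to 387 TPM in the other 5. The part of either in the members' levels was not tested.

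**Figure D2:**
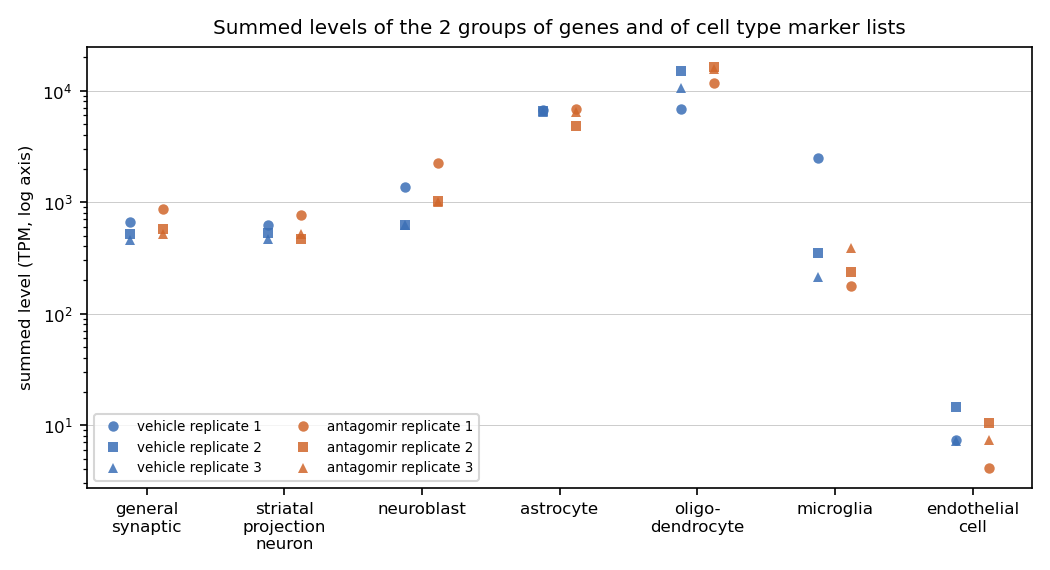
Summed level in TPM on a log axis, by library, of the general synaptic and striatal genes and of the marker lists of 5 cell types, with colours for the groups and symbols for the replicate numbers. The general synaptic genes lie between 453 and 862 TPM, and their highest libraries, the replicate 1 libraries, are also the highest for neuroblast markers.

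None of the 31 genes passed the test of antagomir against vehicle. The quasi-likelihood test of edgeR, adjusted by Benjamini-Hochberg over 15012 genes, called 0 members at 0.05, where the share called over all genes was 0%, and the smallest adjusted p was 0.949. In it 30 members were tested, and Slc17a6 was too sparse. Fold changes were positive for 17 of the 30 and negative for 13, and 49.1% of all genes tested had a positive one. The median log2 fold change of antagomir over vehicle was 0.17 over the 30, beside -0.0060 over all genes tested. At an unadjusted p under 0.05 there were 3 members, with 2 higher and 1 lower, where the share over all genes was 4.1%, of which 2.18% were higher and 1.93% lower. The groups did not overlap for 4 of the 30 (13.3%), 2 higher and 2 lower, against 10.5% of all genes (5.07% higher and 5.45% lower). Frmpd4 and Adgrb3 are in both the unadjusted count and this one. They were already known to have small p when the list was drawn up, so neither count is independent evidence. The 95% interval of the fold change included 0 for 27 members, and it lay within a 2-fold difference either way for 9, so larger differences remain possible for 21.

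**Figure D3:**
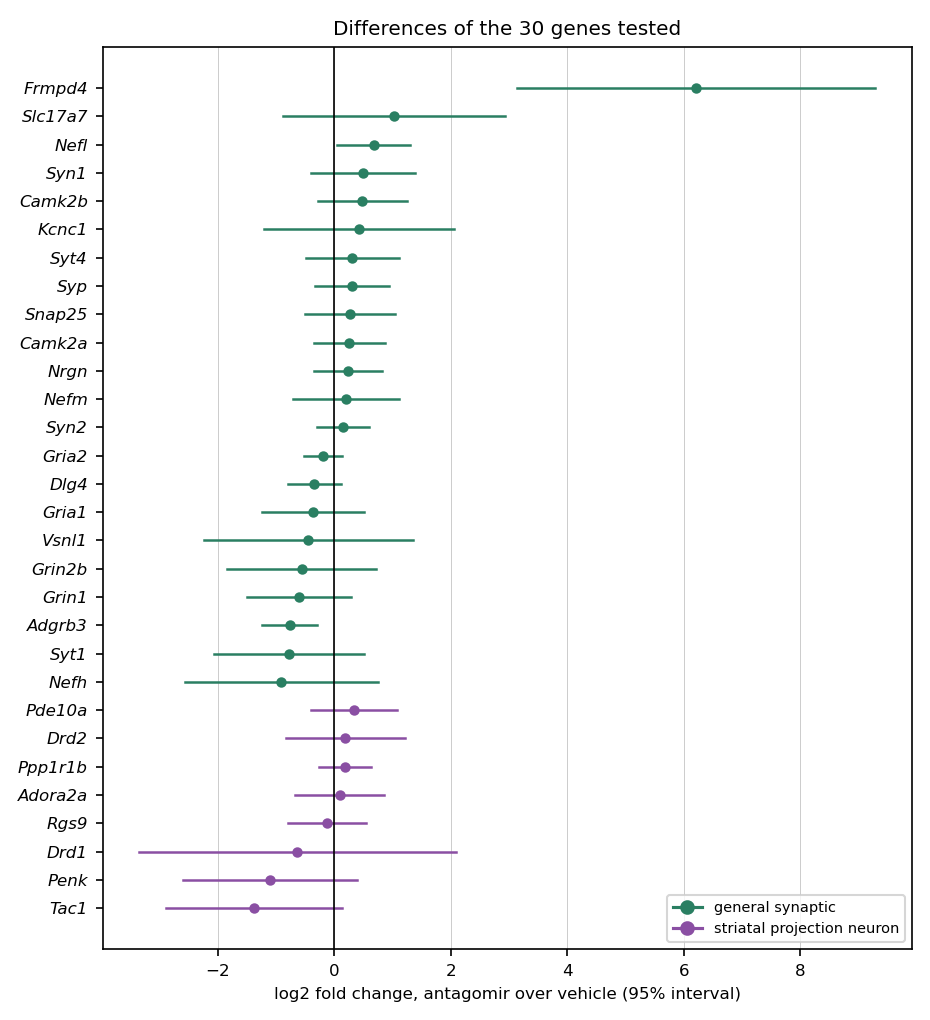
Log2 fold change of antagomir over vehicle, with its 95% interval from edgeR over 3 libraries a group, for the 30 genes tested. Frmpd4 stands at 6.21, and 27 of the 30 intervals include 0.

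Of the 6 genes of vesicle release, 5 had positive fold changes and 0 passed. Snap25, which encodes a SNARE protein of the presynaptic membrane, measured 97.5, 57.5 and 50 CPM in vehicle replicates 1 to 3 and 120.3, 67.5 and 59.3 CPM in antagomir replicates 1 to 3. The groups overlapped, and in each the replicate 1 library was well above the other pair (log2 fold change 0.27 ± 0.33 SE, n = 3 and 3, edgeR adjusted p = 0.953). Syn1, a phosphoprotein that tethers vesicles, measured 56.2, 28.5 and 28.8 CPM with vehicle and 81.5, 33.2 and 44.97 CPM with antagomir. It repeated that order, with vehicle replicate 1 above 2 of the antagomir libraries. Syp, which encodes the vesicle protein synaptophysin and holds both kinds of match shown above, measured 37.6, 41.5 and 28.7 CPM with vehicle and 61.98, 31.6 and 39.7 CPM with antagomir. Its groups overlapped, with the highest value in antagomir replicate 1 and the lowest in vehicle replicate 3 (log2 fold change 0.31 ± 0.28 SE, edgeR adjusted p = 0.950).

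Syt1, the fast calcium sensor of release, measured 20.7, 11.3 and 3.71 CPM with vehicle and 6.87, 7.96 and 5.96 CPM with antagomir. The vehicle libraries spread 5.59-fold and enclosed all the antagomir ones (log2 fold change -0.78 ± 0.56 SE, edgeR adjusted p = 0.949). Without vehicle replicate 1 the log2 fold change was -0.10. Syt4, a synaptotagmin with little calcium binding, measured 5.51, 5.44 and 5.94 CPM with vehicle and 7.604, 6.62 and 6.69 CPM with antagomir. It was the only member of this role whose groups did not overlap, all 3 antagomir libraries being higher (log2 fold change 0.31 ± 0.35 SE, edgeR adjusted p = 0.953). Syn2, a second synapsin, stayed between 44.4 and 69.7 CPM.

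The promoter of Syn1 is shown because it is a widely used neuron-specific promoter and the only one among the members' windows with either motif searched. The window is from RefSeq (GRCm38.p6), 250 bases before to 50 after the start, chrX:20920869-20921168, minus strand, with the motifs in capitals.
Syn1: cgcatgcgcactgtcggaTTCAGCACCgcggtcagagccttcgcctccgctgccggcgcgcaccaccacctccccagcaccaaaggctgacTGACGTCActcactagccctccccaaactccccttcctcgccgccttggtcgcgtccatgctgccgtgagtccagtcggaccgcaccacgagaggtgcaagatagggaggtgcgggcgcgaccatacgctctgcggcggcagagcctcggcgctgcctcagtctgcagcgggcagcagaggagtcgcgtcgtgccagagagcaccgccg
TTCAGCACC, part of the element bound by the repressor REST (which silences neuronal genes in other cells), was sought on both strands and was in 0.371% of 32851 windows of the same length. TGACGTCA, the cAMP response element, was in 1.79%. Windows were found for 20 of the 31 members, and a match of letters says nothing of binding.

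The vesicular glutamate transporters were among the lowest members. Slc17a7, the transporter of cortical neurons, measured 2.87, 1.96 and 0.254 CPM with vehicle and 4.08, 3.88 and 2.38 CPM with antagomir. Only vehicle replicate 1 overlapped the antagomir libraries, and vehicle replicate 3 rested on 5 counts (log2 fold change 1.03 ± 0.83 SE, edgeR adjusted p = 0.949). Slc17a6 had 14 counts in vehicle replicate 1, 24 in antagomir replicate 1 and 0 in the other 4 libraries, where 0 allows up to 3 counts. Both hold a match to the miR-204-5p seed.

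All 4 glutamate receptor genes had negative fold changes, and 0 passed. Grin1, the obligatory NMDA receptor subunit, measured 11.98, 5.93 and 10.4 CPM with vehicle and 7.604, 5.55 and 5.44 CPM with antagomir. Vehicle replicate 2 lay among the antagomir libraries (log2 fold change -0.60 ± 0.39 SE, edgeR adjusted p = 0.949). Grin2b, a subunit that prolongs NMDA receptor currents, measured 15.4, 6.30 and 3.76 CPM with vehicle and 4.26, 7.36 and 5.61 CPM with antagomir. Vehicle replicate 1 alone was high, and without it the log2 fold change was 0.20. The AMPA receptor subunit gene Gria1 measured 20.1, 15.3 and 19.1 CPM with vehicle and 18.2, 17.2 and 6.805 CPM with antagomir. Its fold change leaned on antagomir replicate 3, without which it was -0.024.

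Gria2, the subunit that makes AMPA receptors impermeable to calcium, was the steadiest member. It measured 93.2, 110.8 and 103.4 CPM with vehicle and 88.4, 96.4 and 83.2 CPM with antagomir. The highest library was 1.33-fold above the lowest, and the groups overlapped at vehicle replicate 1 (log2 fold change -0.20 ± 0.14 SE, 95% interval -0.52 to 0.12, edgeR adjusted p = 0.949). Most of its counts were not on coding transcripts: 80.9% were assigned to transcripts annotated as retained intron or nonsense-mediated decay, with 74.5 to 87.1% in single libraries. Of the 31 members it was the only 1 with over 50%, and 24 had under 10%. With coding transcripts alone its log2 fold change was 0.21, so its direction depends on which transcripts are counted.

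**Figure D4:**
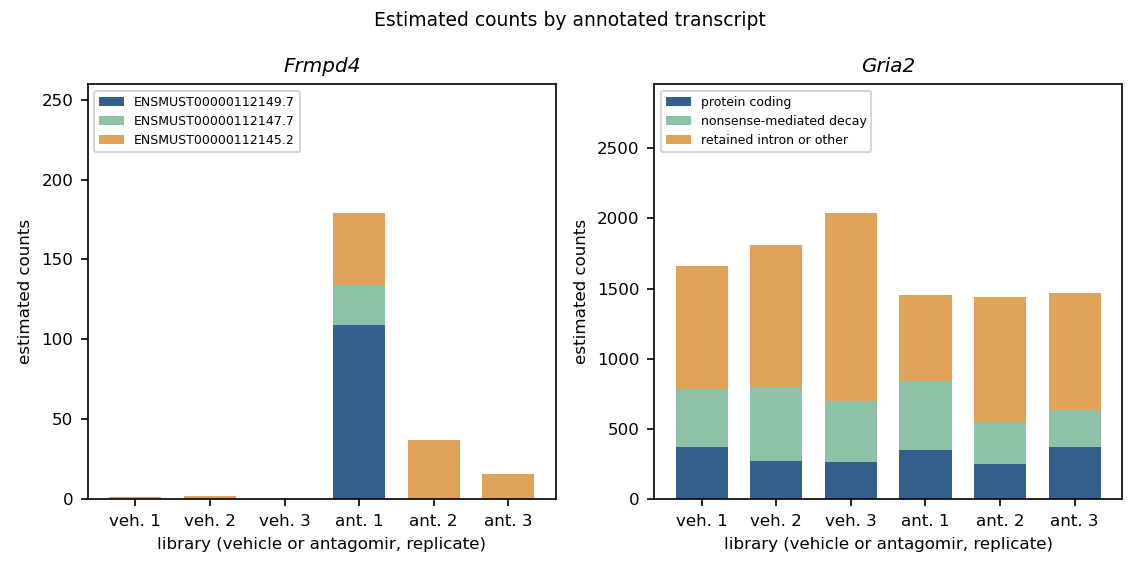
Estimated counts of Frmpd4 (left, by transcript) and of Gria2 (right, by annotated class of transcript) in each library, as stacked bars from 0. Frmpd4 has 179 counts in antagomir replicate 1 and at most 2 in a vehicle library. In Gria2 the coding part is smaller than the noncoding classes together in all 6 libraries.

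Frmpd4 gave the largest difference among the members. It encodes a PDZ and FERM domain protein that binds the postsynaptic scaffold (ENSMUSG00000049176.14, chromosome X, 167471309 to 168577231, minus strand, GRCm38). It had 1, 2 and 0 counts in vehicle replicates 1 to 3 and 179, 37 and 16 counts in antagomir replicates 1 to 3. All antagomir libraries were above all vehicle libraries, and the 3 antagomir libraries themselves differed widely, at 10.9, 2.48 and 0.907 CPM. Its vehicle counts were under the filter's minimum count of 10, so it entered the edgeR test only through the antagomir libraries. Groups of a gene that enters in this way cannot overlap, so their separation is no evidence, and its edgeR rank carries the same limit. The ratio of the summed counts was 84.9, with a 95% exact counting interval of 28.7 to 415. edgeR gave a log2 fold change of 6.21 ± 1.34 SE and an adjusted p of 0.949, with an unadjusted p of 0.00160, rank 3 among all genes tested. DESeq2 called it, with an adjusted p of 0.0162, as 1 of 5 genes called (0.0241% of 20746). The other 4 were Fam83d, Htr3a, Tlr1 and Tg, none of them a member. Without antagomir replicate 1 the DESeq2 call was lost (adjusted p = 0.548), and also without vehicle replicate 3 (adjusted p = 0.0584).

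The Frmpd4 counts lay on different annotated transcripts in different libraries. In antagomir replicates 2 and 3 and in the vehicle libraries all counts were assigned to ENSMUST00000112145.2. In antagomir replicate 1 that transcript had 45.2 counts, while ENSMUST00000112149.7 had 109.1 and ENSMUST00000112147.7 had 24.7. The split between them is kallisto's estimate. The start of ENSMUST00000112147.7, which had counts in antagomir replicate 1 only, is shown from RefSeq (GRCm38.p6, chrX:168577185-168577484, minus strand), with no capitals because neither motif above was found.
Frmpd4: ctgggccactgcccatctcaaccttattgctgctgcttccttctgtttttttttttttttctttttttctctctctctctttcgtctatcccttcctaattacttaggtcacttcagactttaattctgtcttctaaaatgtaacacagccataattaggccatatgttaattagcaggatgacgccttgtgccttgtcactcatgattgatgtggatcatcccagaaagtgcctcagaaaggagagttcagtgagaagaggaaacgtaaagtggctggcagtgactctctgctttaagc
The annotated 3′ UTRs of ENSMUST00000112145.2 (3985 bases) and ENSMUST00000112149.7 (3989 bases) held no match to the miR-204-5p seed.

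Adgrb3, an adhesion receptor of excitatory synapses that binds complement C1q-like proteins (ENSMUSG00000033569.17, chromosome 1, 25067476 to 25829707), was the clearest on the lower side. It measured 24.3, 32.1 and 30.3 CPM with vehicle and 17.2, 16.5 and 17.1 CPM with antagomir. All antagomir libraries were below all vehicle libraries, and they lay within 1 CPM of each other. The log2 fold change was -0.77 ± 0.20 SE (95% interval -1.24 to -0.30, unadjusted p = 0.00509, edgeR adjusted p = 0.949), and it was -0.87 to -0.69 without any single library. Adgrb3 and Frmpd4 were already known to be among the genes with the smallest p in these data when the list was drawn up, so neither is independent evidence.

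The other postsynaptic genes differed less. Dlg4, which encodes the scaffold protein PSD-95, measured 30.5, 23.3 and 29.7 CPM with vehicle and 22.0, 23.1 and 20.6 CPM with antagomir. The groups were just apart in CPM (log2 fold change -0.35 ± 0.20 SE, edgeR adjusted p = 0.949), while in TPM they overlapped, at 26.7 to 39.1 and 16.1 to 36.6 TPM. Camk2a and Camk2b, subunits of the calcium-dependent kinase of synaptic plasticity, had their highest values in antagomir replicate 1. Camk2a measured 185, 140.2 and 149 CPM with vehicle and 257, 190 and 121 CPM with antagomir. Camk2b measured 143, 124 and 86.1 CPM with vehicle and 255, 128 and 111 CPM with antagomir. Nrgn measured 97.1, 73.0 and 61.1 CPM with vehicle and 123, 78.1 and 72.1 CPM with antagomir. In all 3 the groups overlapped, and the edgeR adjusted p was 0.949 to 0.951.

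Among the neurofilament genes, which encode the subunits of the axonal skeleton, Nefl measured 29.98, 25.3 and 28.8 CPM with vehicle and 61.3, 44.2 and 29.2 CPM with antagomir. Antagomir replicates 1 and 2 were above all vehicle libraries and replicate 3 was level with them (log2 fold change 0.68 ± 0.27 SE, unadjusted p = 0.0377, edgeR adjusted p = 0.949). Nefm and Nefh, the medium and heavy subunits, measured 4.65 to 11.2 and 1.00 to 6.45 CPM, and their log2 fold changes were 0.21 and -0.91. The annotated span of Nefm on the minus strand includes Nefl, and since the kit does not mark strand, reads of shared bases cannot be told apart. Kcnc1, a potassium channel of fast-spiking neurons, measured 23.5, 3.30 and 6.75 CPM with vehicle and 25.5, 9.70 and 9.87 CPM with antagomir. Both replicate 1 libraries were high, and the groups overlapped. Vsnl1, a neuronal calcium sensor, measured 4.84, 1.16 and 1.07 CPM with vehicle and 2.43, 1.61 and 1.13 CPM with antagomir, again with replicate 1 the highest in each group.

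The 8 striatal genes split evenly, with 4 positive and 4 negative fold changes, a median log2 fold change of -0.018 and no gene whose groups were apart. Ppp1r1b (ENSMUSG00000061718.12, chromosome 11, 98348404 to 98357796) measured 399, 378 and 366 CPM with vehicle and 567, 342 and 391 CPM with antagomir. Vehicle averaged 381 ± 16.7 CPM (SD, n = 3), antagomir replicate 3 lay among these libraries, replicate 2 below and replicate 1 above them (log2 fold change 0.19 ± 0.20 SE, 95% interval -0.26 to 0.64, edgeR adjusted p = 0.950). Of its counts 27.9% were on noncoding transcripts, mostly a retained intron. Pde10a, the phosphodiesterase of these neurons, measured 56.6, 32.6 and 38.3 CPM with vehicle and 74.9, 52.0 and 34.0 CPM with antagomir. Rgs9, which shortens dopamine receptor signalling, measured 40.6, 38.0 and 23.4 CPM with vehicle and 42.1, 25.2 and 25.9 CPM with antagomir. Both overlapped between the groups, with antagomir replicate 1 the highest.

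The receptors and peptides that tell the projection neuron classes apart behaved unevenly between libraries. Drd2 stayed between 3.43 and 6.26 CPM and Adora2a, the adenosine receptor of the same class, between 11.0 and 22.3 CPM. Drd1, of the other class, measured 3.26, 7.89 and 0.457 CPM with vehicle and 4.20, 0.134 and 3.12 CPM with antagomir. Low libraries were in both groups, with 9 counts in vehicle replicate 3 and 2, under the floor of 3, in antagomir replicate 2. Tac1, the substance P precursor, measured 9.17, 3.92 and 5.69 CPM with vehicle and 4.20, 0.870 and 2.10 CPM with antagomir. Antagomir replicates 2 and 3 rested on 13 and 37 counts. Only antagomir replicate 1 reached the vehicle range (log2 fold change -1.39 ± 0.66 SE, 95% interval -2.90 to 0.12, unadjusted p = 0.0674, edgeR adjusted p = 0.949). Penk, the enkephalin precursor, measured 61.5, 18.8 and 8.48 CPM with vehicle and 19.5, 12.2 and 9.75 CPM with antagomir. Vehicle replicate 1 was 3 or more times any other library, and without it the log2 fold change went from -1.10 to 0.032.

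Set side by side per length, the 8 striatal genes together had about the summed level of the 23 general synaptic genes when all transcripts were counted. The 23 general genes summed to 660, 513 and 453 TPM with vehicle and 862, 577 and 515 TPM with antagomir. The 8 striatal genes summed to 625, 525 and 465 TPM with vehicle and 761, 465 and 516 TPM with antagomir. The ratio of striatal to general was 0.947 to 1.03 with vehicle and 0.806 to 1.00 with antagomir, so the groups overlapped. With coding transcripts only it was 0.807 to 0.891 with vehicle and 0.654 to 0.810 with antagomir. The median striatal gene was 1.89 to 2.93 times the median general gene in the 6 libraries. Ppp1r1b alone made 70.7 to 87.3% of the striatal sum. Leaving it out, a choice made after its level was seen, the ratio was 0.278, 0.194 and 0.151 with vehicle and 0.145, 0.128 and 0.127 with antagomir. These ratios were all higher with vehicle than with antagomir, also without vehicle replicate 1. The striatal sums behind them overlapped, at 183, 99.4 and 68.6 TPM with vehicle and 125, 73.7 and 65.3 TPM with antagomir. The ratio thus depends on the general genes too, and the part of each was not tested. Penk in vehicle replicate 1 was the largest single part of these striatal sums. The log2 ratio of the antagomir to the vehicle mean of the striatal sum without Ppp1r1b was -0.41, and without vehicle replicate 1 it was 0.068. The median log2 fold change was 0.22 over the 22 general genes tested and -0.018 over the 8 striatal ones.

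Other neuronal genes are given for comparison, with 0 called by edgeR. The genes named from each list are mostly those with the smallest p in each direction, so they show its extremes and not its typical member. Of 28 other presynaptic genes, all tested, 16 had positive and 12 negative fold changes. Vamp2, the vesicle SNARE partner of Snap25, measured 279, 326 and 256 CPM with vehicle and 473, 340 and 331 CPM with antagomir, and its groups were just apart. The vesicle protein gene Sv2a had a log2 fold change of 0.54, the active zone gene Pclo -0.45 and the calcium sensor gene Syt2, lower in all 3 antagomir libraries, -1.37. Of 37 other postsynaptic genes tested, 19 were positive and 18 negative. Adgrb1 and Adgrb2 are relatives of Adgrb3 on the list, and of them the naming rule took only Adgrb1. Adgrb1 measured 55.8, 56.3 and 66.2 CPM with vehicle and 43.0, 46.6 and 51.1 CPM with antagomir. All antagomir libraries were again below the vehicle ones (log2 fold change -0.34 ± 0.16 SE, edgeR adjusted p = 0.949), as they were for the adhesion gene Nlgn1 (-0.36). Grik4 (0.58) and Camk4 (0.72) led on the higher side.

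Of 19 other striatal genes tested, 13 had positive and 6 negative fold changes, with a median log2 fold change of 0.38. Rasd2, a small GTPase of striatal neurons, measured 157, 172 and 124 CPM with vehicle and 374, 209 and 178 CPM with antagomir. Its groups did not overlap (log2 fold change 0.75 ± 0.28 SE, unadjusted p = 0.0278, edgeR adjusted p = 0.949). Pde1b, a calcium-dependent phosphodiesterase, had a log2 fold change of 0.54 and overlapping groups. The transcription factor genes Rarb and Foxp1 had -0.21 and -0.16. Rasd2 and Pde1b each had their highest value in antagomir replicate 1, like most of the 31.

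Of 26 genes of the neuronal soma, axon and membrane channels tested, 18 had positive and 8 negative fold changes. Kcna2, a potassium channel of axons, measured 50.2, 46.3 and 61.7 CPM with vehicle and 36.0, 33.2 and 33.1 CPM with antagomir. All antagomir libraries were lower (log2 fold change -0.63 ± 0.18 SE, unadjusted p = 0.00743, edgeR adjusted p = 0.949). The calcium channel gene Cacna1a had -0.87, the glycolytic enzyme gene Eno2 0.52 and the channel gene Kcnc2, whose groups were apart, 0.50. Among 10 interneuron genes tested 6 were positive and 4 negative. Pvalb, a calcium-binding protein, measured 32.1, 36.5 and 36.3 CPM with vehicle and 18.4, 22.9 and 22.8 CPM with antagomir (log2 fold change -0.71 ± 0.19 SE, unadjusted p = 0.00567, edgeR adjusted p = 0.949), with the groups apart. Calb2, the calretinin gene, had 1.41, also with the groups apart, and the neuropeptide gene Npy -1.88. Gad1, the GABA-synthesizing enzyme that projection neurons and neuroblasts also express, measured 73.8, 24.6 and 19.0 CPM with vehicle and 116, 56.3 and 32.4 CPM with antagomir, with overlapping groups.

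The neuroblast gene Dcx measured 142, 25.1 and 17.4 CPM with vehicle and 274, 60.8 and 61.1 CPM with antagomir, so the libraries richest in it were those richest in most of the 31 genes. Of the 13 neuroblast markers 0 were called, and all had fold changes of at least 0, though Cd24a, which ependymal cells also carry, had 0.00. Some lists of other cell types were as one-sided, with 0 called in each. All 10 oligodendrocyte markers had positive fold changes (median log2 0.29). All 11 astrocyte (median -0.23), 10 microglia (-2.13) and 7 ependymal markers (-0.25) had negative ones. Other lists were mixed: oligodendrocyte precursor markers had 8 positive and 1 negative, tested endothelial markers 1 and 2, and tested choroid plexus markers 1 and 3. The groups were apart for 4 of the 11 astrocyte markers (36.4%), against 10.5% of all genes tested. The part of these lists in the members' values was not tested. When replicate 1 of both groups was left out, an alternative added after the data were seen, edgeR called 0 members, and the median log2 fold change was 0.17 over the general and -0.29 over the striatal genes. The groups, then of 2 libraries each, did not overlap for 14 of 30 members, where 38.5% of all genes tested did not overlap. Without antagomir replicate 1 alone, Snap25, Syp, Syn2, Camk2a, Nrgn, Kcnc1, Ppp1r1b, Drd2 and Adora2a turned negative, at -0.24 to -0.012, and the median over the general genes was -0.075. Members without overlap numbered 7 without antagomir replicate 1 (19.7% of all genes), 5 without replicate 2 (21.4%) and 7 without replicate 3 (18.1%). They numbered 10 without vehicle replicate 1 (26.7%), 7 without replicate 2 (20.2%) and 5 without replicate 3 (16.8%). As shares of the members tested these counts lay on both sides of the share over all genes.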

How the data were processed

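RNA was isolated with a PicoPure kit and made into cDNA with SMART-Seq v4, a kit without strand information, for paired-end sequencing, per the labels' protocols. Kallisto, sleuth and mm10 are named in the submitters' processing notes, and their versions are not given in the sources used here. Per the file headers, the authors deposited expected counts (estimated counts per transcript) from kallisto, without normalization. The deposited TPM values are those counts per effective length scaled to the same total in each library, per the file headers. The effective length deposited by the authors (other unit, bases) was not used further. Of 99567 transcripts 98294 (98.7%) matched GENCODE M21 by identifier without version. The other 1273 held 0.524 to 0.586% of counts and were left out.

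Counts were summed per gene, rounded and fitted in R 4.3.3 by edgeR 4.0.16 (TMM, filterByExpr with a minimum count of 10, robust quasi-likelihood, group as the only term, all 6 libraries, Benjamini-Hochberg over 15012 genes). The test was tried on simulated data, and how many planted changes it recovered is not reported here. SE is the fold change over the root of F, and CPM uses TMM-scaled sizes. No 2 libraries agreed within sampling noise. Alternatives were RLE factors, no filter, DESeq2 1.42.0, limma 3.58.1 (voom, and trend on log2(TPM + 1)), coding transcripts only, a replicate block, and leaving out libraries.

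The members and lists were chosen with earlier results of these data known. All members are named. Of each other neuronal list up to 2 genes in each direction with the smallest p are named. Of each cell type list the rule took the 2 with the highest TPM, and always Dcx, Mbp, Gfap, C1qb, Rbfox3, Map2 and Gad1, some of which are not reported here.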

Additional observations from a re-analysis of the deposited data

How the results depend on the processing

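Under 14 alternatives edgeR and limma called 0 of the members and 0 genes, and DESeq2 called 1 member (Frmpd4, log2 fold change 6.40) and 5 genes. The median log2 fold change ranged without single libraries from -0.075 to 0.38 over the general and from -0.33 to 0.14 over the striatal genes, and the log2 ratio of summed TPM from 0.011 to 0.43 and from -0.13 to 0.25. Without Ppp1r1b, an alternative added after the data were seen, the striatal log2 ratio was -0.41, against 0.11 with it. That value ranged from -0.75 to 0.068 without single libraries, turning only without vehicle replicate 1. Members without overlap numbered 5 to 10 without single libraries and 14 without replicate 1 of both groups, against 4. Fewer libraries overlap less often, and the shares over all genes were then 16.8 to 26.7% and 38.5%. Frmpd4 by DESeq2 had 4.86 to 7.49 without single libraries.

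Of 30 members tested, 15 turned direction without a single library. The ranges were -0.11 to 0.63 (Snap25), -0.012 to 0.51 (Syp), -0.040 to 0.25 (Syn2), -0.91 to 0.20 (Grin2b), -0.029 to 0.51 (Camk2a), -0.039 to 0.45 (Nrgn), -0.037 to 0.40 (Nefm), -0.20 to 1.59 (Kcnc1), -0.78 to 0.64 (Vsnl1), -0.056 to 0.34 (Ppp1r1b), -1.23 to 0.42 (Drd1), -0.056 to 0.37 (Drd2), -1.53 to 0.032 (Penk), -0.41 to 0.031 (Rgs9) and -0.24 to 0.28 (Adora2a). Without replicate 1 of both groups Grin2b was 0.36, Vsnl1 0.29, Ppp1r1b -0.023 and Adora2a -0.41. Pde10a was -0.049 on log2(TPM + 1) and Gria2 0.21 with coding transcripts only. The cause was not tested.

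Same-numbered libraries deviated from their group means with correlations of 0.20, 0.075 and 0.028. Libraries of unlike number had -0.19 to 0.14, so whether the numbers pair the libraries cannot be told. With the replicate block edgeR called 0 members and 0 genes, the medians were 0.21 and -0.032, and no direction turned. The edgeR unadjusted p then fell for some members (Syn1, 0.241 to 0.0279) and rose for others (Syt1, 0.201 to 0.34). The adjusted p of Frmpd4 was 0.299 with the block. Depth most limits Slc17a6, Slc17a7, Drd1 and Frmpd4, which rest on few counts in some libraries. Low counts also limit Tac1 (13 in antagomir replicate 2), Nefh (15 in antagomir replicate 2) and Vsnl1 (19 in vehicle replicate 2).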
